A study of Homo sapiens with 14 samples.

Results

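The comparison described here is the change inside PANC-1 cultures exposed to proanthocyanidins (PA) between 3 and 12 h of exposure. It was taken by sample label: the 2 libraries labelled PA at 12 h were set against the 2 labelled PA at 3 h, which is 4 of the 14 libraries of the study. All genes in the table of counts entered, 28120 in number, of which 15181 passed a filter on low counts and were tested. PANC-1 is an established human pancreatic cancer cell line, used here at passage 3 to 5, and all cultures carried the same line. The groups are PA at 12 h and PA at 3 h, both at 20 micrograms per ml, and DMSO, the vehicle, at 12 h and at 3 h, with 2 libraries each. PA at 24 h (2 libraries) is mentioned where the course of a gene beyond 12 h is described. The submitters describe the repeat sequencing as biological. Neither their text nor the labels say whether each library came from its own culture, and p-values speak of the spread between libraries alone, which may be technical.

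Proanthocyanidins are plant polyphenols, chains of flavanol units that bind proteins and metals. Cells make cholesterol and fatty acids through enzymes whose genes are switched on by the SREBP transcription factors when membrane sterol is low, and they make ATP from glucose through glycolysis, many of whose genes respond to the hypoxia factor HIF1. Dividing cells copy DNA with licensing and fork proteins whose genes are largely E2F targets, and then build a spindle with kinesins and kinetochore proteins whose genes are switched on late in the cycle, through promoter elements that include the CCAAT box and the cell cycle homology region.

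Reads counted in genes ranged from 26403984 to 35213154 over the 14 libraries. The PA 12 h libraries held 30721243 and 27801440 reads, and the PA 3 h libraries 31017197 and 35065628. Levels are given as TMM-normalised CPM (reads of a gene relative to the scaled library total), changes as log2 ± SE from edgeR's quasi-likelihood test with Benjamini-Hochberg adjustment over the 15181 genes, and a gene was called at an adjusted p under 0.05. KRT8 and KRT18, the keratins of simple epithelium, were abundant, with KRT8 at 7566 and 5395 CPM in the PA 12 h libraries and 3839 and 3077 CPM in the PA 3 h libraries. CDH1, the epithelial cadherin, had 0.791 and 0.929 CPM in the PA 12 h libraries and 0.758 and 0.832 CPM in the PA 3 h libraries, so this defining marker was near 0. Of 10 fibroblast, 10 leukocyte and 10 endothelial markers, 1, 3 and 3 passed the filter and none was called. FAP, POSTN, MS4A1 and TEK were at 0 in all 4 libraries. The fibroblast sum was 0.536 to 0.791 CPM at 12 h and 0.665 to 0.727 at 3 h. The leukocyte sum, mostly CD68, was 48.0 to 81.6 CPM at 12 h and 50.6 to 57.1 at 3 h, and the endothelial sum, mostly ENG, 26.9 to 39.4 at 12 h and 27.3 to 30.3 at 3 h.

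Between 3 and 12 h of PA, 2359 genes changed, 15.5% of those tested: 1242 were higher at 12 h (8.18%) and 1117 lower (7.36%). Of these, 774 (5.1% of tested genes) differed by at least 2-fold, 444 upward (2.92%) and 330 downward (2.17%), and the median change over all tested genes was -0.01. In the DMSO arm over the same interval 192 genes changed (1.26%), 49 upward (0.323%) and 143 downward (0.942%). The change differed between the arms for 423 genes (2.79%), with the PA change the higher for 319 (2.1%) and the lower for 104 (0.685%). Both PA 12 h libraries lay above both PA 3 h libraries for 26% of tested genes and below them for 25.3%. Of the 2359 genes called in the PA arm, 352 (14.9%) also passed this test of the difference. In every one of these 352 the difference had the sign of the PA change, which is nearly given, since the PA change is part of the difference. Called in both arms were 99 genes, 93 in the same direction, which is 4.20% of the PA calls and 51.6% of the DMSO calls. Since the bulk RNA of a culture was sequenced, fewer cells in a state and less RNA per cell cannot be told apart.

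How many genes passed depended on the libraries that entered. The 2 PA 12 h libraries were the least alike of any group, with a Spearman correlation of 0.978 and an SD of their log2 difference of 0.680, against 0.994 and 0.448 in the PA 3 h libraries. Without PA 12 h replicate 1, 1537 genes were called, and without PA 12 h replicate 2, 5294. Leaving out PA 3 h replicate 1 gave 1398 calls, and leaving out PA 3 h replicate 2 gave 455, of which 453 were among the 2359. With the spread estimated from the 4 PA libraries alone, 20 genes passed, 17 higher and 3 lower, while the 4 DMSO libraries alone gave 1344 calls. Those 20 include ALDOC, ACSS2, SCD, FADS2, ACAT2, NDRG1, BNIP3, PFKFB4, CCNG2 and CA9 among the rises, and MKI67, the urokinase gene PLAU and the chemokine CX3CL1 among the falls. Without TMM factors the split was 932 higher and 1478 lower, with the median of all genes at -0.11. On the deposited RPKM it was 969 and 1414 with a pseudocount of 1, 891 and 1394 with 0.1, and 926 and 1600 with a minimum of 1 RPKM. The number of genes differing between arms also moved: it was 277 and 5007 without PA 12 h replicates 1 and 2, 176 and 61 without PA 3 h replicates 1 and 2, 85 and 42 without DMSO 12 h replicates 1 and 2, and 92 without DMSO 3 h replicate 1. Its split was 546 and 528 after correcting for GC content and length, 185 and 142 without TMM factors, where the median of all genes was -0.15, and 724 and 484 with DESeq2. For the DMSO arm, leaving out 1 library gave 9, 10, 22 or 206 calls, the first 3 without DMSO 12 h replicate 1, DMSO 12 h replicate 2 and DMSO 3 h replicate 1.

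**Figure D1:**
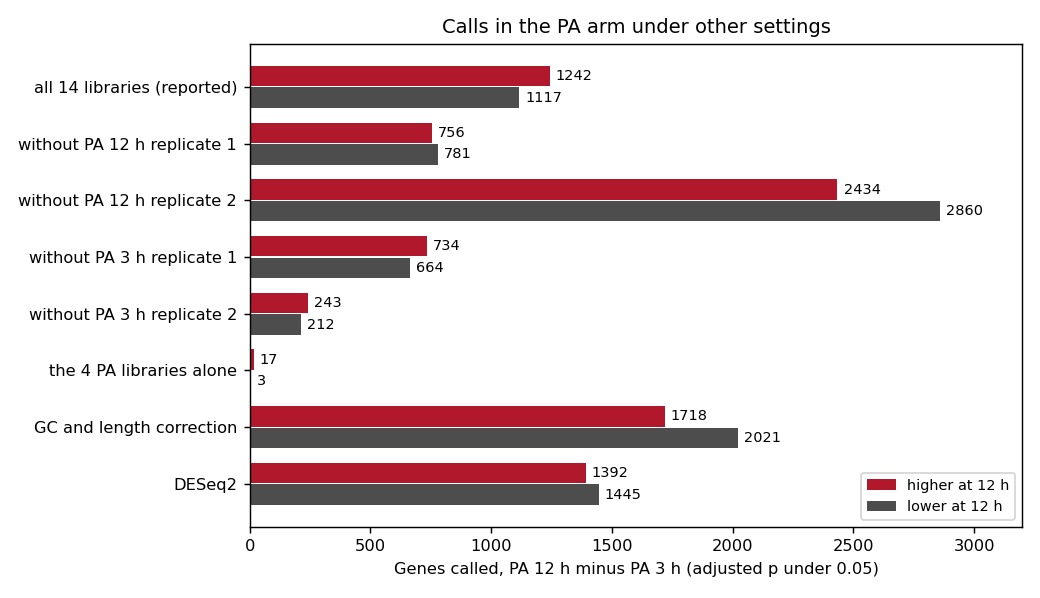
Number of genes called higher (red) and lower (grey) at 12 h than at 3 h of PA, on the x axis from 0, under the reported fit and 7 other settings. Calls ranged from 20 with the 4 PA libraries alone to 5294 without PA 12 h replicate 2.

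GC content moved with the change, most in PA 12 h replicate 1; its part in the calls was not tested beyond the correction given here. Genes called higher had a median transcript GC content of 57.6% and genes called lower 45.1%, against 48.8% over all tested genes. Per 10 points of GC, log2 CPM relative to the mean of all libraries was higher by 0.578 in PA 12 h replicate 1 and 0.124 in replicate 2, and by 0.163 and 0.028 in the PA 3 h libraries. Of the 1242 genes called higher, 1033 (83.2%) were further from the 3 h level in replicate 1 than in replicate 2, and of the 1117 called lower, 750 (67.1%). After removing each library's trend on GC content and transcript length, 3739 genes were called, 1718 higher and 2021 lower, and 2022 of the 2359 remained called, each in the same direction. RNAs of the mitochondrial genome took 7.75% and 6.02% of the reads at 12 h and 5.12% and 4.72% at 3 h.

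**Figure D2:**
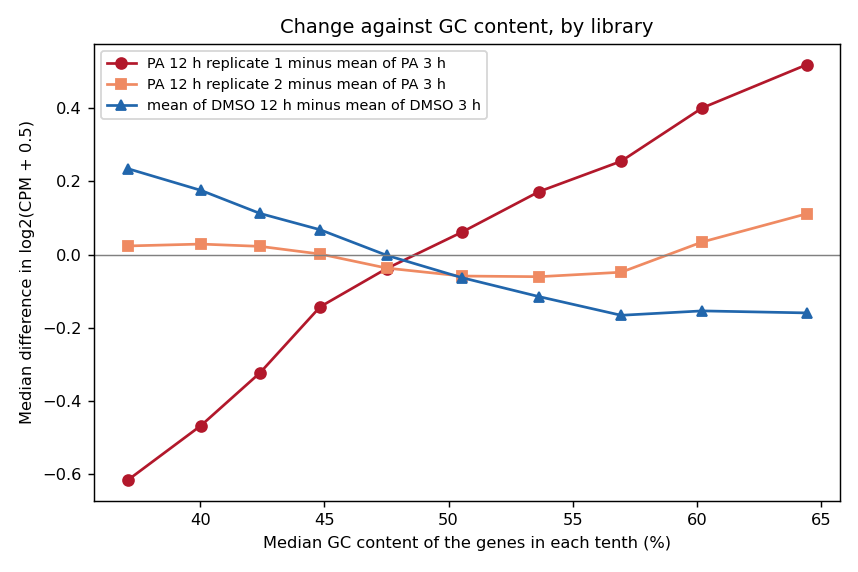
Median difference in log2(CPM + 0.5), y axis, against the median GC content in percent of 10 equal groups of tested genes, x axis, for each PA 12 h library relative to the mean of PA 3 h and for the DMSO arm. Replicate 1 runs from -0.62 in the tenth of lowest GC content to 0.52 in the highest, replicate 2 from 0.02 to 0.11, and the DMSO arm from 0.23 to -0.16.

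Among genes of at least 5 CPM over the 4 PA libraries whose groups did not overlap, the 2 with the largest rises belong to glucose and acetate use. ALDOC, the aldolase isoform best known from brain, had 133 and 83.7 CPM in the PA 12 h libraries, against 12.8 and 12.1 CPM in the PA 3 h libraries. In the DMSO libraries it had 4.52 and 2.64 CPM at 12 h and 4.30 and 7.45 at 3 h. Of these 8 libraries the PA 12 h pair stood far above the others, while non-overlap of the PA groups was a condition of the choice. The rise was 3.13 ± 0.332 (adjusted p = 9.37e-05), which is 8.74-fold, and it exceeded the DMSO change by 3.85 ± 0.475 (adjusted p = 0.00181). The gene, ENSG00000109107.12, spans chromosome 17 from 28573115 to 28577264 on the minus strand in GENCODE 29 (GRCh38).

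ACSS2, which makes acetyl-CoA from acetate in the cytosol and nucleus, had 375 and 249 CPM at 12 h of PA, against 53.2 and 42.7 CPM at 3 h. In DMSO it had 20.9 and 18.3 CPM at 12 h and 27.3 and 28 CPM at 3 h. The PA groups did not overlap, by the rule that chose the gene, and both lay above DMSO at each time. The rise was 2.70 ± 0.233 (adjusted p = 3.87e-05), and at 24 h of PA the mean stood higher still, at 791 ± 127 CPM (SD, n = 2). SCD, the desaturase that makes oleate, had 6519 and 5532 CPM at 12 h, against 1413 and 1329 CPM at 3 h, a rise of 2.14 ± 0.203 (adjusted p = 6.13e-05). It was the most abundant of the 12 genes with the largest rises. SCD lies on chromosome 10 at 100347124 to 100364834.

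The other rises among the 12 largest were smaller in level. PFKFB4, which makes the fructose bisphosphate that drives glycolysis, rose by 2.36 ± 0.242. PIK3IP1, an inhibitor of PI3 kinase, rose by 2.30 ± 0.256, and CCNG2, an unusual cyclin linked to cell cycle arrest, by 2.15 ± 0.194. The growth factor receptor FGFR4 (2.14), the nuclear envelope protein gene SPAG4 (2.12), LBHD1 (2.10) and PPP1R3C (2.10), which targets a phosphatase to glycogen, also rose. For all of these the change differed from that in DMSO, by 1.61 to 2.55. The mitochondrial transfer RNA genes MT-TA and MT-TC rose by 2.09 each on counts. In DMSO MT-TA rose too (1.25, adjusted p = 0.0268), and MT-TC stood at 0.91 without passing (adjusted p = 0.0714). For neither did edgeR call the difference between arms (adjusted p = 0.161 and 0.0648). On the deposited RPKM the PA change of both ran the other way, at -0.35 and -0.62 on the log2(RPKM + 1) scale. MT-TA was listed at 0 and 0.98 RPKM at 12 h of PA, against 1.32 and 0.39 RPKM at 3 h, while its CPM were 25.9 and 15.0 at 12 h, against 5.15 and 4.46 at 3 h. Its levels are therefore uncertain. None of the 12 largest rises lost its call when any 1 of the 4 PA libraries was left out.

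**Figure D3:**
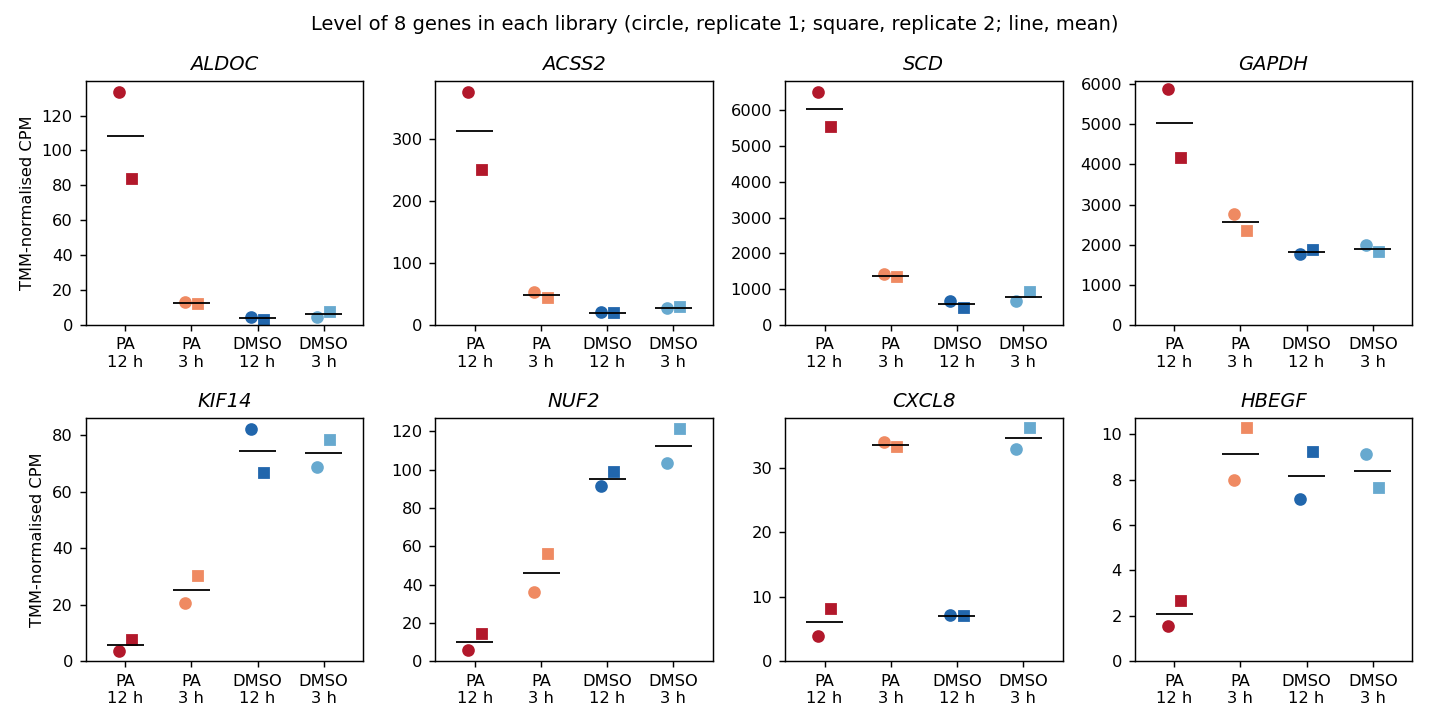
TMM-normalised CPM (y axis, from 0) of 4 genes that rose and 4 that fell in each library of PA 12 h, PA 3 h, DMSO 12 h and DMSO 3 h (x axis); circles are replicate 1, squares replicate 2 and lines the group mean. In the upper row the PA 12 h libraries are the highest, and in the lower row PA 12 h is lower than PA 3 h in all 4 genes, with CXCL8 lower in DMSO at 12 h too.

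Most sterol synthesis genes rose. Of 20 enzymes between acetyl-CoA and cholesterol, 18 rose and none fell, against 8.18% and 7.36% of all tested genes, and the median change was 0.97. In DMSO none rose and 2 fell, MVD and HMGCS1, with a median of -0.48, and 13 were lower at an unadjusted p under 0.05. For 15 of the 20 the change differed between arms, with a median difference of 1.56 that holds the DMSO fall as well as the PA rise. Among the middle and late enzymes FDPS, which makes farnesyl diphosphate, rose by 1.76 ± 0.186, LSS, which closes the sterol ring, by 1.55 ± 0.168, EBP, a sterol isomerase, by 1.69 ± 0.173, and TM7SF2, a sterol reductase, by 1.94 ± 0.227. ACAT2, the thiolase at the start of the pathway, had 780 and 754 CPM at 12 h, against 220 and 225 CPM at 3 h. Its PA libraries agreed closely within each time, and its rise of 1.79 ± 0.14 was the one of this list that also passed with the 4 PA libraries alone. IDI1, near 0.5 CPM, and PMVK (0.41, adjusted p = 0.185) did not pass.

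MVD, which makes isopentenyl diphosphate, shows how the arms parted. It had 216 and 140 CPM at 12 h of PA, against 62.3 and 63.4 CPM at 3 h, and in DMSO 17.5 and 16.1 CPM at 12 h, against 36.3 and 36.3 CPM at 3 h. Libraries moved in opposite directions in the 2 arms. The PA change was 1.5 ± 0.202, the DMSO change -1.11 (adjusted p = 0.023), and their difference 2.62 ± 0.288 (adjusted p = 0.000743). Of 12 tested genes of sterol control and uptake, 4 rose and none fell, with a median of 0.39. These were the sensors INSIG1 (1.13 ± 0.179) and INSIG2 (1.24 ± 0.184) and the transcription factor genes SREBF1 (1.15 ± 0.213) and SREBF2 (0.72 ± 0.162). The count was 2 without PA 3 h replicate 2.

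Of 12 tested fatty acid genes, 7 rose and none fell, with a median of 0.69, and 5 of them differed between arms. In DMSO edgeR called none (median -0.20), and 4 were lower at an unadjusted p under 0.05. FASN, the fatty acid synthase, had 877 and 521 CPM at 12 h of PA, against 328 and 252 CPM at 3 h, a rise of 1.27 ± 0.213 (adjusted p = 0.00204). FADS2, which makes polyunsaturated chains, rose by 1.84 ± 0.177, and ACLY, which makes acetyl-CoA from citrate, by 1.32. The elongase ELOVL5 stood at -0.02 and did not pass. After the GC and length correction, 18 of 20 sterol synthesis genes and 8 of 12 fatty acid genes were called higher.

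Most glycolytic genes rose. Of 20 tested, 18 rose and none fell, with a median of 0.90. In DMSO edgeR called none (median -0.14; 3 at an unadjusted p under 0.05), and 12 of the 20 differed between arms. GAPDH, often used as a housekeeping control, had 5877 and 4171 CPM at 12 h of PA, against 2772 and 2351 CPM at 3 h. In DMSO it had 1762 and 1857 CPM at 12 h and 1978 and 1822 CPM at 3 h. The PA libraries did not overlap, and the rise was 0.97 ± 0.155 (adjusted p = 0.0015), 1.04 ± 0.218 above the DMSO change. The glucose transporter SLC2A1 rose by 1.25 ± 0.142, the hexokinase HK2 by 1.30 ± 0.122 and the enolase ENO2 by 1.84 ± 0.184. LDHA, which makes lactate, had 4276 and 3748 CPM at 12 h, against 2600 and 2465 CPM at 3 h, a rise of 0.66 ± 0.112. PFKM, the muscle isoform of phosphofructokinase, stood at -0.09 and did not pass, while its liver isoform PFKL rose by 0.91. When PA 3 h replicate 2 was left out, 10 of the 20 were called. After the GC and length correction it was 17.

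Hypoxia response genes outside glycolysis rose too: 12 of 14 tested, none fell, and the median was 0.99. The stress-induced gene NDRG1 had 410 and 366 CPM at 12 h of PA, against 96.7 and 96.1 CPM at 3 h, and BNIP3, a mitophagy receptor, 888 and 918 CPM at 12 h, against 296 and 291 CPM at 3 h. Replicates agreed closely for both genes, with rises of 2.01 ± 0.143 and 1.62 ± 0.137. CA9, the carbonic anhydrase used as a hypoxia marker, had the largest change of the list, 4.02 ± 0.777 (adjusted p = 0.00464), at low levels of 3.45 and 2.89 CPM at 12 h, against 0.221 and 0.166 CPM at 3 h. VEGFA, the angiogenic factor, went against the list: it had 120 and 109 CPM at 12 h, against 132 and 136 CPM at 3 h, without passing (-0.23, adjusted p = 0.241). For 4 of the 14 the change differed between arms. Of the 14, 5 were called without PA 3 h replicate 2. In the pentose phosphate pathway 3 of 7 rose, among them the NADPH-producing PGD (0.83 ± 0.14), and RPIA fell by 0.59. When PA 12 h replicate 1, PA 3 h replicate 1 or PA 3 h replicate 2 was left out, RPIA lost its call and 1 rise was left, while 5 rises were called without PA 12 h replicate 2.

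**Figure D4:**
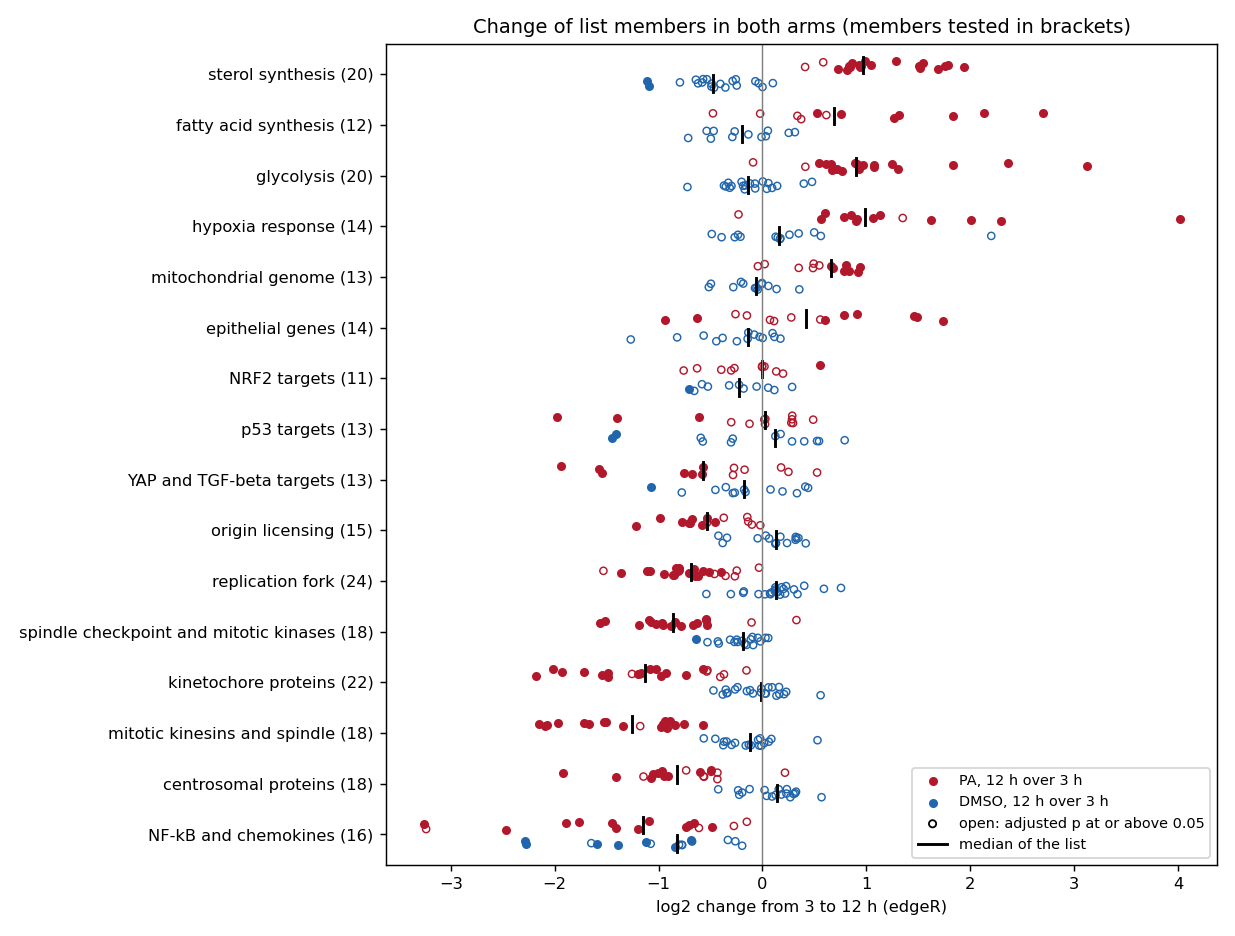
log2 change from 3 to 12 h (x axis) of every tested member of 16 gene lists (y axis), in PA (red, upper row) and DMSO (blue, lower row); filled points have an adjusted p under 0.05 and black bars are list medians. PA medians run from 0.99 for the hypoxia response to -1.26 for mitotic kinesins and spindle, and in the 4 metabolic lists at the top the DMSO medians lie between -0.48 and 0.16.

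Most of the listed mitotic genes fell. Of 18 kinesins and spindle proteins, 17 fell and none rose, with a median of -1.26. The counts were 15 of 22 for kinetochore proteins (median -1.13) and 16 of 18 for spindle checkpoint proteins and mitotic kinases (median -0.86), again with no rise. In DMSO the medians were -0.12, -0.01 and -0.18, with no edgeR call in the first 2 lists (6 and 5 at an unadjusted p under 0.05) and 1 in the third, BIRC5. The difference between arms was called for 3, 7 and 1 of them.

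KIF14, a kinesin of the midbody, had 3.78 and 7.61 CPM at 12 h of PA, against 20.5 and 30.1 CPM at 3 h. In DMSO it had 82.2 and 66.7 CPM at 12 h and 68.8 and 78.4 CPM at 3 h. Both PA groups lay below all 4 DMSO libraries, so the fall from 3 to 12 h started from an already lower level. It measured -2.15 ± 0.388 (adjusted p = 0.00307), and the difference from DMSO -2.17 ± 0.52 (adjusted p = 0.042), a difference that passed only when PA 12 h replicate 2 was the library left out. NUF2, of the complex that binds microtubules at the kinetochore, had 5.72 and 14.5 CPM at 12 h, against 36 and 55.8 CPM at 3 h, a fall of 2.18 ± 0.336 on the log2 scale (adjusted p = 0.00123). CENPF, a large kinetochore protein of late cycle cells, had 40.6 and 57.0 CPM at 12 h, against 151 and 246 CPM at 3 h, and 730 and 718 CPM in DMSO at 12 h. Its PA groups did not overlap, as the rule for the largest falls required, and it fell by 2.02 ± 0.315.

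MKI67, the standard marker of cycling cells, had 419 and 384 CPM at 12 h of PA, against 1057 and 1099 CPM at 3 h. In DMSO it had 1152 and 1041 CPM at 12 h and 1313 and 1487 CPM at 3 h. The PA 12 h libraries lay below the other 6, with little spread. It fell by 1.43 ± 0.157 on the log2 scale (adjusted p = 0.000113), 1.07 more than in DMSO (adjusted p = 0.022), and its mean at 24 h of PA was 152 ± 38.9 CPM (SD, n = 2). AURKA, a centrosomal mitotic kinase, had 115 and 144 CPM at 12 h, against 277 and 272 CPM at 3 h, and fell by 1.09 ± 0.128. CCNB1, the mitotic cyclin, had 246 and 238 CPM at 12 h, against 586 and 556 CPM at 3 h. It fell by 1.24 ± 0.113 in PA and by 0.51 in DMSO, with the difference between arms called (-0.73 ± 0.158, adjusted p = 0.0285). MYBL2 (-0.11) and CDC25B (0.33) were the 2 checkpoint and kinase genes that did not pass.

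Replicates of the mitotic genes were spread. Among the 12 genes with the largest falls by the same rule, CKAP2L (-2.13), ASPM (-2.10), KIF15 (-2.07), SGOL2 (-2.0) and HMMR (-1.97), all of the spindle or centromere, had lower levels in PA 12 h replicate 1 than in replicate 2 and in PA 3 h replicate 1 than in replicate 2. ASPM, for example, had 3.71 and 12.3 CPM at 12 h and 22.9 and 45.7 CPM at 3 h. Without PA 3 h replicate 2 these 5 no longer passed, with adjusted p between 0.066 for CKAP2L and KIF15 and 0.15 for ASPM. Without PA 12 h replicate 2 the values were larger, -3.21 for ASPM, -3.08 for KIF15, -3.0 for NUF2 and -2.74 for KIF14. List counts moved likewise: without PA 3 h replicate 2, 9 of 18 kinesins and spindle proteins, 8 of 22 kinetochore proteins and 7 of 18 checkpoint and kinase genes were called, the last 10 of 18 without PA 3 h replicate 1. With the 4 PA libraries alone no member of these 3 lists was called. After the GC and length correction, 17, 20 and 17 were called lower.

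The promoters of these genes are shown because the genes moved together and because 2 known elements recur in them. RefSeq promoters (GRCh38.p14) were available for 17 of the 18 kinesins and spindle proteins, in a window of 250 bases before to 50 after the start. Of these, 15 (88.2%) hold TTTGAA or TTCGAA on either strand, the cell cycle homology region, against 16.6% of the 27305 promoters in the table, and 15 hold CCAAT on either strand, against 35.7%. For kinetochore proteins the first motif was in 11 of 18 promoters and the second in 10 of 18. CCAAT was not particular to the mitotic lists: it was in 10 of 13 origin licensing and 10 of 20 fork promoters. In lists that rose it was in 6 of 11 fatty acid, 5 of 11 sterol control and 5 of 20 glycolysis promoters. Among sterol synthesis genes, most of which rose, every matched promoter held it except those of PMVK, IDI1 and CYP51A1. Below are the stretches from 180 bases before to 25 after the start of 5 of the genes that fell, chosen after the matches were seen, with the cell cycle homology region and CCAAT in capitals on either strand. The E2F site shares the letters TTGG with a reversed CCAAT box, so those 2 motifs can overlap. A match is a description of these letters and not evidence of binding.

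KIF14 (chr1:200620727-200620931, minus strand): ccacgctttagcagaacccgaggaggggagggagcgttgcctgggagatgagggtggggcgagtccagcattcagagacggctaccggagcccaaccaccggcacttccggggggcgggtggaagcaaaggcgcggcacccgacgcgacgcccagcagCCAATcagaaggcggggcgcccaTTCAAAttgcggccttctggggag
HMMR (chr5:163460452-163460656, plus strand): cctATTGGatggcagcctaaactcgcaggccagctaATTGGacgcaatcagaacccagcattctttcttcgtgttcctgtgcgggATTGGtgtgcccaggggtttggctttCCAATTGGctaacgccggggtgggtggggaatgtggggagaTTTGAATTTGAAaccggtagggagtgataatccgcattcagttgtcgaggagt
KIF18B (chr17:44947749-44947953, minus strand): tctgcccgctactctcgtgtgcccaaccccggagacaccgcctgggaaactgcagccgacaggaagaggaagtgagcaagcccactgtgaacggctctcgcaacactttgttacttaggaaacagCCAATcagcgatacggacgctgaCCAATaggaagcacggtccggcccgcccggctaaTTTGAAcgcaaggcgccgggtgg
DLGAP5 (chr14:55191561-55191765, minus strand): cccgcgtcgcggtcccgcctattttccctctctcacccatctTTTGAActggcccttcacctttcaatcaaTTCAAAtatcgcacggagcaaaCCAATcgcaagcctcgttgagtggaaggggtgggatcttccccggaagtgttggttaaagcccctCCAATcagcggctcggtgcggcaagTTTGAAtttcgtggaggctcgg
PRC1 (chr15:90994511-90994715, minus strand): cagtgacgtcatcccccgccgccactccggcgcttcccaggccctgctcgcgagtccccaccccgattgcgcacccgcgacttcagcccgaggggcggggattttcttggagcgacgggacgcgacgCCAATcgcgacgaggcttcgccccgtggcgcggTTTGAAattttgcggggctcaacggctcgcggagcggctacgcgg

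Many genes of DNA replication fell. Of 24 fork genes 18 fell and none rose (median -0.68), and of 15 origin licensing genes 9 fell and none rose (median -0.54). In DMSO edgeR called no member of either list (4 of each at an unadjusted p under 0.05), with a median of 0.13 in each, and the difference between arms was called for 5 and 3. CLSPN, which couples the fork to the checkpoint, had 61.0 and 77.6 CPM at 12 h of PA, against 130 and 169 CPM at 3 h, and 308 and 353 CPM in DMSO at 12 h. The fall was 1.11 ± 0.184 on the log2 scale (adjusted p = 0.00188). ORC6, of the origin recognition complex, fell by 1.22 ± 0.165, and MCM4, of the replicative helicase, by 0.70 ± 0.115, while MCM2 (-0.15) and MCM5 (-0.10) of the same helicase did not pass. PCNA, the sliding clamp, had 115 and 145 CPM at 12 h, against 183 and 149 CPM at 3 h, and did not pass (-0.36, adjusted p = 0.19). The E2F site TTGGCGC or TTCGCGC, on either strand, was in 9 of 20 fork promoters and 6 of 13 licensing promoters, against 5.18% of all promoters. The cell cycle homology region was in none and 1 of them. The E2F site was also in 4 of 17 promoters of kinesins and spindle proteins and 3 of 18 of kinetochore proteins. In lists that rose it was in 1 of 11 fatty acid, 1 of 11 sterol control and 1 of 20 glycolysis promoters. Among sterol synthesis genes it was in the promoters of MSMO1, NSDHL, EBP and SC5D.

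These counts were also sensitive to single libraries. Without PA 3 h replicate 2, 3 of 24 fork genes and 4 of 15 licensing genes were called, and without PA 3 h replicate 1, 11 and 5. Of 18 genes of homologous recombination and the Fanconi pathway, 9 fell, among them FANCD2, a protein monoubiquitinated in that pathway (-1.17 ± 0.151). That count was 18 when PA 12 h replicate 2 was left out, 4 when PA 3 h replicate 1 was and 2 when PA 3 h replicate 2 was. Of 17 E2F factors, cyclins and their partners, 7 fell, including the cyclin CCNF (-1.15 ± 0.132), with 11 called without PA 12 h replicate 2. RRM1 and RRM2, the subunits of ribonucleotide reductase, fell by 0.80 ± 0.149 and 0.56 ± 0.125, calls that were lost without PA 3 h replicate 2, and for RRM2 also without PA 3 h replicate 1. Of 18 centrosomal proteins 10 fell (median -0.82), led by CEP135 of the centriole (-1.92 ± 0.377). Leaving out PA 3 h replicate 2 left none of these calls, and leaving out PA 12 h replicate 1 left 4.

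Among the inhibitors of the cell cycle the directions differed. CDKN1C had 7.73 and 7.25 CPM at 12 h of PA, against 2.75 and 3.08 CPM at 3 h, and rose by 1.36 ± 0.25 (adjusted p = 0.00345), 1.64 above DMSO. CDKN1A, the p53-driven inhibitor p21, had 63.3 and 47.2 CPM at 12 h of PA, against 89.0 and 79.9 CPM at 3 h, and in DMSO 17.5 and 19.2 CPM at 12 h, against 50.8 and 47.0 CPM at 3 h. It was lower at 12 h in both arms and higher in PA than in DMSO at each time. The PA change was -0.61 ± 0.172 (adjusted p = 0.0289) and the DMSO change -1.41 (adjusted p = 0.0019), and their difference of 0.80 did not pass (adjusted p = 0.0848). The PA call was lost without PA 12 h replicate 2 (-0.42) and without either PA 3 h library (-0.53 and -0.69). Of 13 p53 targets, 3 fell and none rose, with a median of 0.02: CDKN1A, the stress gene GADD45A (-1.40 ± 0.167) and the death receptor FAS (-1.98 ± 0.481), which had 0.216 and 0.250 CPM at 12 h, against 0.632 and 1.22 CPM at 3 h, and lost its call when PA 12 h replicate 1 or PA 3 h replicate 2 was left out.

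Chemokine genes fell in both arms. Of 16 tested NF-kB targets and chemokines, 12 fell in PA and none rose, with a median of -1.15, and in DMSO 7 fell, with a median of -0.82. For none of the 16 did edgeR call the difference between arms, and 1 had an unadjusted p under 0.05. CXCL8, the neutrophil chemokine, had 3.92 and 8.18 CPM at 12 h of PA, against 34.0 and 33.2 CPM at 3 h. In DMSO it had 7.12 and 7.09 CPM at 12 h, against 33.0 and 36.2 CPM at 3 h. The arms overlap at each time. The fall was 2.47 ± 0.271 on the log2 scale in PA (adjusted p = 0.000111) and 2.28 in DMSO (adjusted p = 0.0013), and the difference was -0.19 ± 0.368 (adjusted p = 0.781). CCL2, the monocyte chemokine, fell by 1.41 ± 0.148 in PA and 1.6 in DMSO. Of the 16, 7 were called without PA 3 h replicate 2. CYP1B1, a target of the aryl hydrocarbon receptor, also fell in both arms, with -2.15 ± 0.298 in PA and -1.67 in DMSO, as did the iron storage gene FTH1 (-0.93 in PA, -1.63 in DMSO) and the stress factor ATF4 (-0.81 and -0.91). Of 10 tested genes of iron homeostasis, 3 rose and 2 fell in PA, with a median of 0.06, and 3 fell in DMSO.

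HBEGF, a ligand of the EGF receptor, fell in PA, and its change differed from that in DMSO. It had 1.55 and 2.64 CPM at 12 h of PA, against 7.96 and 10.3 CPM at 3 h, and in DMSO 7.12 and 9.21 CPM at 12 h, against 9.12 and 7.62 CPM at 3 h. The PA 12 h libraries were below all 6 others. The fall was 2.12 ± 0.268 on the log2 scale (adjusted p = 0.000342), and the difference from DMSO -2.09 ± 0.36 (adjusted p = 0.011). At 24 h of PA its mean was 8.87 ± 0.476 CPM (SD, n = 2). CTGF, a matricellular target of YAP, had 32.7 and 47.0 CPM at 12 h of PA, against 171 and 134 CPM at 3 h, and fell by 1.94 ± 0.189, 1.16 more than in DMSO (adjusted p = 0.0321). Of 13 YAP and TGF-beta targets 7 fell, including ANKRD1 (-1.57 ± 0.221) and THBS1 (-1.54 ± 0.217), and CYR61, another classic YAP target, did not pass (-0.27). Leaving out PA 12 h replicate 1, PA 3 h replicate 1 or PA 3 h replicate 2 left 4, 4 and 3 of these calls.

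**Figure D5:**
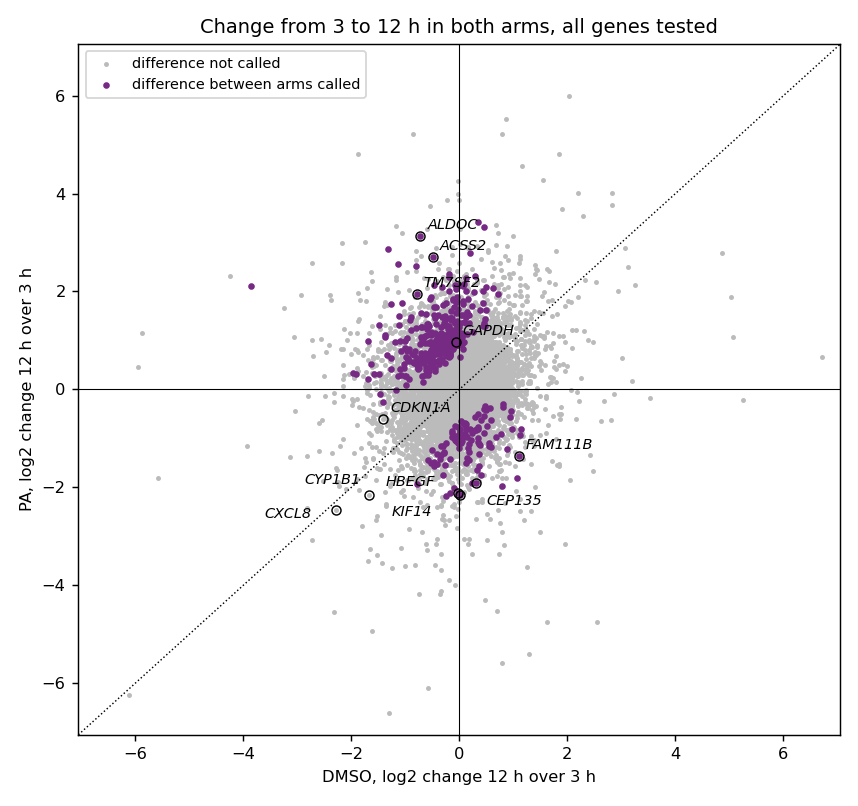
log2 change from 3 to 12 h in PA (y axis) against that in DMSO (x axis) for the 15181 tested genes, with the 423 genes whose change differed between arms in purple and 11 named genes circled; the dotted line marks equal change. ALDOC and ACSS2 lie far above the line, KIF14, HBEGF and CEP135 below it, and CXCL8 (-2.47 in PA, -2.28 in DMSO) close to it.

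Epithelial genes moved both ways. Of 14 tested, 6 rose and 2 fell. KRT19, a ductal keratin, had 2915 and 1882 CPM at 12 h of PA, against 961 and 749 CPM at 3 h, and rose by 1.49 ± 0.183 (adjusted p = 0.000278). ELF3, an epithelial transcription factor, had 120 and 66.8 CPM at 12 h, against 38.9 and 29.4 CPM at 3 h, and rose by 1.45 ± 0.262. It lost its call without PA 3 h replicate 2 (1.27, adjusted p = 0.062). The claudin gene CLDN1 fell by 0.93 ± 0.156. The number of rises was 3 when PA 12 h replicate 1 was left out and 1 when PA 3 h replicate 2 was. Of 11 mesenchymal genes SNAI2 alone was called (-0.86, adjusted p = 0.0429), with no lower call in that list when PA 12 h replicate 1 or either PA 3 h library was left out and 4 without PA 12 h replicate 2, and VIM, the mesenchymal filament, had 2862 and 2440 CPM at 12 h, against 2503 and 2048 CPM at 3 h, without passing.

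In the stress lists some genes rose and others fell. Over all tested genes 8.18% were called higher and 7.36% lower, so the NRF2 and heat shock counts below are near the share of all genes. The mesenchymal count above is near it too, as are the counts of falls among chaperones, clock genes and interferon response genes below. Of 14 genes of the ATF4 and CHOP response 3 rose, among them the kinase-like inhibitor TRIB3 (1.09 ± 0.217) and DDIT4, an inhibitor of mTOR (0.78 ± 0.17), and 2 fell, ATF4 itself and PSAT1, of serine synthesis (-0.42, adjusted p = 0.0488). Without PA 3 h replicate 2, 1 rise and 1 fall were called. Of 11 NRF2 targets only NQO1, a quinone reductase, rose (0.55 ± 0.121), and HMOX1, the heme oxygenase, had 34.8 and 18.5 CPM at 12 h of PA, against 25.1 and 23.5 CPM at 3 h, without passing. No NRF2 target was called higher without PA 3 h replicate 2. After the GC and length correction 3 of the 11 were called lower. Of 13 endoplasmic reticulum chaperones 2 rose and 1 fell, HSPA5 (-0.38), and of 12 cytosolic heat shock genes 1 rose and 1 fell. The chaperone rises numbered 1 without PA 12 h replicate 1, PA 12 h replicate 2 or PA 3 h replicate 1, and there were 0 when PA 3 h replicate 2 was left out. No heat shock gene was called without PA 12 h replicate 1 or PA 3 h replicate 2, and 2 rises and 4 falls were without PA 12 h replicate 2. After the GC and length correction 3 heat shock genes were called lower. HSPA5 kept its call only when PA 12 h replicate 2 was the library left out. Among 16 clock genes DBP (1.69 ± 0.207) and PER1 (1.34 ± 0.194) rose, with ARNTL, and CRY2 fell (-0.75 ± 0.166). CRY2 lost its call without PA 3 h replicate 1, and 5 clock genes were higher without PA 12 h replicate 2. Collagens, laminins and integrins had 3 of 20 lower and none higher, and 12 of 20 lower after the GC and length correction. Without PA 12 h replicate 2 it was 7, and without either PA 3 h library none. Of the 13 protein-coding genes of the mitochondrial genome, 7 rose and none fell (median 0.66), such as MT-CO2 (0.92 ± 0.2), along with the rise in the mitochondrial share of reads given above. Leaving out PA 12 h replicate 1, PA 12 h replicate 2, PA 3 h replicate 1 or PA 3 h replicate 2 gave 2, 11, 3 or 0 such calls. For 20 ribosomal protein genes it was 6 higher, and 3, 17 and 0 without PA 12 h replicate 1, PA 12 h replicate 2 and PA 3 h replicate 2.

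Of 17 immediate early genes 5 fell and 1 rose (median -0.45), with 3 falls in DMSO as well. FOSL1, an AP-1 subunit, had 179 and 139 CPM at 12 h of PA, against 374 and 381 CPM at 3 h, and fell by 1.25 ± 0.191, while JUNB, another subunit, rose by 0.56 ± 0.157, a call kept only when PA 12 h replicate 2 was the library left out. Without PA 3 h replicate 2, 2 of the falls were called. Of 13 interferon response genes 4 rose and 1 fell (median 0.36). ISG15, a ubiquitin-like modifier, had 76.7 and 51.6 CPM at 12 h, against 29.8 and 29.3 CPM at 3 h, and rose by 1.12 ± 0.219, and the transcription factor IRF1 fell by 0.95 ± 0.15. Without PA 12 h replicate 1, 2 of these rises were called, and without PA 3 h replicate 2 none.

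Of 16 genes of cohesin, condensin and topoisomerase II, 9 fell and none rose (median -0.87). TOP2A, which untangles chromosomes, had 63.7 and 189 CPM at 12 h of PA, against 321 and 486 CPM at 3 h, and 881 and 899 CPM in DMSO at 12 h. It fell by 1.68 ± 0.375 (adjusted p = 0.00995), although the PA 12 h libraries lay far apart. That list had 14 calls when PA 12 h replicate 2 was left out and 2 when PA 3 h replicate 2 was. Of 13 damage kinases and sensors 6 fell, among them the checkpoint kinase CHEK1 (-0.81 ± 0.194), with 2, 12 and 1 called without PA 12 h replicate 1, PA 12 h replicate 2 and PA 3 h replicate 2. Against these, 3 of 12 replication-dependent histone genes rose and none fell (median 0.63), such as HIST1H1C (0.72 ± 0.142), with 1 left without PA 3 h replicate 1 and none without PA 3 h replicate 2.

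Of 16 autophagy and lysosome genes 4 rose and none fell (median 0.22). SQSTM1, the autophagy receptor p62, had 3900 and 2700 CPM at 12 h of PA, against 2132 and 1775 CPM at 3 h, a rise of 0.76 ± 0.164, and the lysosomal sialidase NEU1 rose by 1.10 ± 0.207. The count of rises was 2 without PA 12 h replicate 1 or PA 3 h replicate 1, 8 when PA 12 h replicate 2 was left out and 0 when PA 3 h replicate 2 was. NR1H3, the oxysterol receptor LXR alpha, had 16.2 and 11.4 CPM at 12 h, against 5.94 and 5.90 CPM at 3 h, and rose by 1.22 ± 0.184. Of 14 proteasome genes 4 fell and none rose (median -0.34), with 2, 8, 1 and 0 called without PA 12 h replicates 1 and 2 and PA 3 h replicates 1 and 2.

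Among genes of at least 5 CPM on average whose PA libraries did not overlap, the change differed most between the arms for ALDOC, ACSS2, TM7SF2, MVD and SCD on the higher side. On the lower side it differed most for FAM111B, CEP135, KIF14, NEXN and SASS6. FAM111B, a protease gene of cycling cells, had 1.22 and 3.61 CPM at 12 h of PA, against 3.85 and 8.48 CPM at 3 h, and in DMSO 58.5 and 53 CPM at 12 h, against 25.4 and 26.6 CPM at 3 h. The PA change did not pass (-1.36 ± 0.44, adjusted p = 0.0519), and the difference from DMSO did (-2.46 ± 0.577, adjusted p = 0.0392). In DMSO its 12 h libraries lay well above its 3 h libraries, again without passing (1.10, adjusted p = 0.15). NEXN, an actin-binding protein gene, fell by 1.75 ± 0.364 in PA, and SASS6, of the centriole cartwheel, by 1.22 ± 0.384, and both calls were lost without PA 3 h replicate 2, that of SASS6 also without PA 12 h replicate 1. Of all 52 named genes whose change differed between arms, 35 no longer passed that test without PA 3 h replicate 2. Leaving out DMSO 12 h replicate 2 ended 38 of the calls, DMSO 3 h replicate 1 ended 31 and DMSO 12 h replicate 1 ended 30. ALDOC, ACSS2, TM7SF2, MVD and SCD passed it whichever of the 8 libraries was left out. The difference for MKI67, CCNB1, CTGF and CDKN1C was lost without either PA 3 h library, and that for GAPDH and HBEGF without PA 3 h replicate 2.

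For the called genes the mean level at 24 h of PA is a description, since the 12 h values that chose them also enter it. Of the 1242 genes higher at 12 h, 799 were further from the 3 h mean in the same direction at 24 h, 418 lay between the 3 h and 12 h means and 25 had passed back beyond the 3 h mean. Of the 1117 lower genes these counts were 670, 389 and 58. ALDOC went on to 261 ± 18.3 CPM at 24 h (SD, n = 2) and NUF2 stood at 9.20 ± 2.90.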

How the data were processed

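RNA of PANC-1 monolayers was extracted with Trizol and sequenced on a NextSeq 500 as paired reads of 151 nt, per the labels' protocols. The authors deposited raw counts per gene for 14 libraries in 7 groups, and a table of RPKM made by the authors. The submitters' processing notes name TopHat2, edgeR and GRCh38, with no version or role; the gene annotation behind the counts is not given in the sources used here.

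Counts were tested with edgeR 4.0.16 in R 4.3.3: edgeR's low-count filter (15181 genes kept), TMM factors, 1 mean for each of the 7 groups over all 14 libraries, and the two-sided quasi-likelihood test with Benjamini-Hochberg adjustment. The SE is the size of the log2 change divided by the square root of F. The biological coefficient of variation was 15.1% and the residual degrees of freedom 7. The difference between arms is the PA change minus the DMSO change in that fit. The script was tested on simulated data.

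The comparison and the 47 gene lists were chosen with earlier results of these data known. Named genes were the 12 largest rises and falls at 5 CPM or more with groups that did not overlap, up to 3 called members of smallest p in each list with at least 3 calls, the 5 largest differences between arms each way, and CDKN1A, MKI67 and GAPDH. Clone and locus names were left out. Other list members are examples chosen after their values were seen. A few genes that enter the counts are not reported here by name.

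Alternatives were DESeq2 1.42.0 as a test or for size factors, no TMM, other filters, a replicate block, a spline correction for GC content and length (longest basic transcript of GENCODE 29, 99.3% of genes), the contrast's own libraries, limma 3.58.1 on log2(RPKM + 1) or log2(RPKM + 0.1), and leaving out each library. Promoters came from RefSeq, matched by Ensembl identifier or, where that failed, by symbol. They matched 72.9% of tested genes, too few to compare all calls, so motif counts are given only for some lists with a higher share matched. In lists that rose, the sterol regulatory element core (TCAC, any base, CCAC) was in 1 of 11 sterol control and 0 of 11 fatty acid promoters, against 1.15% of all promoters. It was absent from every matched promoter of the sterol synthesis genes, among them HMGCS1, MVD, FDPS, LSS and DHCR7. The hypoxia response element core ACGTG was in 8 of 20 glycolysis promoters, against 21.6% of all, and in 6 of 17 promoters of kinesins and spindle proteins.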

Additional observations from a re-analysis of the deposited data

Results flagged for a closer look

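For 52 of the named genes the change from 3 to 12 h differed between PA and DMSO by edgeR's test of that difference, with an adjusted p under 0.05. Each value below is the PA change minus the DMSO change on the log2 scale. Of these 52 calls 35 were lost without PA 3 h replicate 2, 38 when DMSO 12 h replicate 2 was left out, 31 when DMSO 3 h replicate 1 was, 30 when DMSO 12 h replicate 1 was, and 37 when the spread came from the 8 libraries alone. Groups of 2 libraries were too small to look for single outlying libraries.

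Among the genes with the largest PA rises the difference was 3.85 for ALDOC, 3.20 for ACSS2, 2.61 for SCD, 2.55 for PFKFB4, 2.50 for PIK3IP1, 2.23 for FGFR4, 2.13 for LBHD1, 2.06 for CCNG2, 2.05 for SPAG4 and 1.61 for PPP1R3C. In sterol synthesis and its control it was 2.74 for TM7SF2, 2.62 for MVD, 2.15 for EBP, 1.85 for ACAT2 and 1.59 for INSIG1. In glycolysis, the hypoxia response and the pentose phosphate pathway it was 1.96 for ENO2, 1.88 for NDRG1, 1.12 for BNIP3, 1.12 for PGD, 1.04 for GAPDH and 0.83 for HK2.

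In DNA replication, repair and the cell cycle the difference was -1.30 for CLSPN, -1.13 for PRIM2, -0.90 for FANCI, -0.82 for MCM4, -0.85 for CCNF, -0.73 for CCNB1 and -1.07 for MKI67, against 1.64 for CDKN1C and 0.97 for HIST1H1C in the other direction. In mitosis and at the centrosome it was -2.22 for CEP135, -2.17 for KIF14, -2.11 for SASS6, -1.93 for CENPF, -1.94 for NUF2, -1.46 for SGOL1, -1.23 for SKA1, -1.01 for SPC25, -1.0 for KIF18B, -0.85 for AURKA and -0.83 for NCAPH.

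In the other groups the difference was 1.90 for ELF3, 1.64 for NEU1, 1.45 for DBP, 1.39 for ISG15 and 1.37 for KRT19 on the higher side and -2.77 for FAS, -2.46 for FAM111B, -2.16 for NEXN, -2.09 for HBEGF and -1.16 for CTGF on the lower side. FAS had 0.216 and 0.250 CPM at 12 h of PA.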

How the results depend on the processing

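In the PA arm the count of 2359 was 20 with the 4 PA libraries alone, 3739 with the GC and length correction, 3517 with that correction and the replicate block, 774 with a 2-fold minimum, and 455 to 5294 when 1 library was left out. In the DMSO arm the count of 192 was 809 without a filter, 892 with the correction, 700 with correction and block, 1344 with its own libraries, 700 with DESeq2, 83 with a 2-fold minimum and 9 to 206 with 1 library left out. For the difference between arms the count of 423 was 1808 without a filter, 1074 with the correction, 909 with correction and block, 48 with the 8 libraries alone, 1208 with DESeq2, 250 on log2(RPKM + 0.1) and 42 to 5007 with 1 library left out. The causes were not tested.

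Libraries that share a replicate number were not treated as pairs, since their deviations correlated over 0.1 in only 2 of 21 pairs of groups (range -0.22 to 0.24). The highest, 0.24, was that of PA 12 h with PA 3 h. The replicate block gave 2052, 96 and 285 calls for the PA arm, the DMSO arm and the difference. With it 2 named PA calls were lost, SASS6 and DNAJB9, and 4 named differences, among them KIF14 (adjusted p = 0.0648).

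MT-TA and MT-TC, higher by 2.09 on counts, reversed on the deposited RPKM: -0.35 and -0.62 on log2(RPKM + 1), with or without an RPKM minimum, and -1.34 and -1.87 on log2(RPKM + 0.1). Of 105 named genes called in the PA arm, 94 lost the call with the 4 PA libraries alone, 40 without PA 3 h replicate 2, and 0 with DESeq2. The comparison of promoter motifs after the GC correction was not run, since too few genes had a promoter.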
